A study of Mus musculus with 4 samples.

Results

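Of the 31053 genes in the deposited matrices, 10 genes of steroid hormone synthesis and its control were followed through single-cell RNA sequencing (scRNA-seq) libraries of mouse gonads and of gonadal somatic cells induced from embryonic stem cells (ESCs). They are Star, Cyp11a1, Hsd3b1, Cyp21a1, Cyp11b1, Mc2r, Mrap, Cyp17a1, Insl3, and Fdx1. The genes were named as a list of adrenal and Leydig cell steroidogenic genes, and their levels in each library and their co-detection with Cyp11a1 were known when the list was drawn up. Those values are therefore given as a description, and no test was run on them.

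Steroid hormones are made from cholesterol. The transfer protein STAR brings cholesterol into the mitochondrion, where CYP11A1 cuts off its side chain with electrons passed on by ferredoxin (FDX1), and HSD3B1 turns the product pregnenolone into progesterone. From there, CYP21A1 and CYP11B1 lead to corticosterone in the adrenal cortex, whereas CYP17A1 leads to androgens in Leydig cells, the steroid-making cells of the testis interstitium, which also secrete the peptide INSL3. MC2R is the receptor for the pituitary hormone ACTH, and MRAP is the accessory protein that carries this receptor to the surface of adrenal cells. The adrenal cortex and the gonad arise from a common primordium of NR5A1-positive cells.

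The study made gonadal somatic cells from mouse ESCs and set them beside embryonic gonads. The 4 XY libraries used here hold ESC-derived cells on culture day 6 (D6) and gonads of 3 embryonic ages, E12.5, E11.5, and E10.5, with 1 library for each. The gonads came from ICR mice and were made into libraries with the 10x Genomics v2 kit. Tissue dorsal to the gonad was included at E10.5, whereas both later ages were taken without the mesonephros. The D6 cells came from the single XY line N271S9C, labeled C57BL/6J with the transgenes Nr5a1-hCD27a and Sox9-2A-CGFP, were enriched on magnetic beads for the hCD271 reporter driven by Nr5a1, and were made into a library with the v3 kit. The methods of the study differ from this label, giving a cross of 129X1/SvJ with C57BL/6J mice as the source of the ESCs and spelling the transgene Nr5a1-hCD271. Strain, culture, enrichment, and kit all differ between the D6 library and the gonads and cannot be told apart, and the age of the gonads cannot be told apart from the library.

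Within the limits of the study on detected genes and mitochondrial UMIs, 2285 cells were kept at D6, 2764 at E12.5, 2101 at E11.5, and 3837 at E10.5. A UMI is a molecule counted once by its barcode. The kept cells held between 11906360 UMIs at D6 and 34173977 UMIs at E12.5, and the median cell held 4607, 10946, 11926, and 8167 UMIs in the order D6, E12.5, E11.5, and E10.5. Of the cell barcodes, 15 to 23 in each gonad library were also found in another gonad library, and 0 in the D6 library were. Levels are given as CPM, UMIs of the gene per 1000000 UMIs of the library, with 95% Poisson intervals and shares of cells with exact 95% binomial intervals, which cover counting error only, since no condition has a replicate. Nr5a1, the factor by which the D6 cells were enriched, was found in 29.1%, 31.9%, 34.7%, and 1.88% of the cells in the same order.

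The stretch just upstream of the start site was examined for the members whose RefSeq window begins near the annotated gene start, because NR5A1 and GATA factors are known regulators of steroid genes. RefSeq windows (GRCm38.p6) were given for 4 of the 10 genes. Hsd3b1, whose UMIs separated cells of different kinds at E11.5, and Fdx1, which was found in every library, were taken. Their 250 upstream bases are shown 5′ to 3′ on the strand of the gene. They lie at chr3:98859795-98860044 on the minus strand and at chr9:51963603-51963852 on the minus strand. Capitals mark a match to AGATAA, a form of the GATA motif, here read on the other strand. Other forms of this motif were not searched for.
Hsd3b1: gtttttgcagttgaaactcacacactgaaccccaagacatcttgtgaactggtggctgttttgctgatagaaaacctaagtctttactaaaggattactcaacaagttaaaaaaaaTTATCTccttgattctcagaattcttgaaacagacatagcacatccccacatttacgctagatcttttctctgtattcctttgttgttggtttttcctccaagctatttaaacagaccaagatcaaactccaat
Fdx1: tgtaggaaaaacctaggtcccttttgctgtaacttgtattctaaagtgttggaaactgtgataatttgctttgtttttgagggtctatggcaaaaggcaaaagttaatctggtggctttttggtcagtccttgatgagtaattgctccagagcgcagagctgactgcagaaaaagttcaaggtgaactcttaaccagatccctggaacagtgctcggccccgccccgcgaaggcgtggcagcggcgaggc
The Hsd3b1 window held 1 such match, 134 bases before the start, and the Fdx1 window held 0. Neither held the NR5A motifs AAGGTCA or AAGGCCA on either strand. The Insl3 window, which starts 38 bases from the annotated start, held none of these motifs and is not shown, as the UMIs of Insl3 are few and uncertain, and the windows of Cyp11a1 start 8387 and 8541 bases away. Among all 32851 windows of this length, 9.99% held AGATAA, 4.08% held AAGGTCA, and 5.24% held AAGGCCA. A match is a description of the letters and not a binding site.

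The 10 genes lie apart in the genome (mm10), apart from pairs that share a chromosome: Star (25806555 to 25815982) and Insl3 (71689214 to 71690575) on chromosome 8, and Cyp11a1 (58006411 to 58027023) and Fdx1 (51943306 to 51963556) on chromosome 9. The kits count the 3′ ends of transcripts, so the share of each gene's last 500 bases that another gene also holds bears on the counts. For Insl3, 79.6% of these 31-base words also occur in transcripts of Jak3, which overlaps it on the same strand, so its few UMIs are uncertain. This share was 9.09% for Cyp11b1, 6.26% for Cyp11a1, 2.75% for Hsd3b1, and 2.13% for Cyp21a1, whose words are shared with the pseudogene Cyp21a2-ps. It was at or near 0 for the other 5 genes. UMI levels are compared between libraries or cells for the same gene and not between genes.

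Levels of the first step of synthesis were higher at D6 than in any gonad library. Star had 125 CPM (119 to 131) at D6, 7.40 (6.52 to 8.37) at E12.5, and 12.0 (10.7 to 13.4) at E11.5, and it had 26 UMIs in the E10.5 library, with an interval of 0.522 to 1.17 CPM. Cyp11a1 had 150 CPM (143 to 157) at D6, 2.19 (1.73 to 2.75) at E12.5, and 7.72 (6.66 to 8.89) at E11.5, whereas the E10.5 library held only 2 UMIs of it. Both genes were thus lower at E12.5 than at E11.5, with ratios of 0.618 (0.520 to 0.734) for Star and 0.284 (0.215 to 0.373) for Cyp11a1, and higher at D6 than at E12.5, by 16.9-fold (14.8 to 19.4) and 68.5-fold (54.3 to 87.5). The E11.5 and E12.5 intervals of Star overlapped after thinning to 2000 UMIs a cell and among Nr5a1-positive cells alone, whereas those of Cyp11a1 stayed apart. Fdx1, which also serves other mitochondrial enzymes, had 53.1, 61.7, 73.1, and 224 CPM from E10.5 to D6, with no overlap of intervals between any of these libraries, and was 3.07-fold (2.90 to 3.24) higher at D6 than at E12.5.

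Hsd3b1, the next enzyme, was at 42.3 CPM (38.7 to 46.2) at D6, 5.27 (4.53 to 6.10) at E12.5, 6.05 (5.12 to 7.10) at E11.5, and 0.954 (0.648 to 1.35) at E10.5. The E11.5 and E12.5 intervals overlapped, and the D6 level was 8.04-fold (6.77 to 9.58) that at E12.5.

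The enzymes of corticosterone synthesis were detected at D6 only. Cyp21a1 had 412 UMIs in 115 D6 cells (34.6 CPM, 31.3 to 38.1), and Cyp11b1 had 402 UMIs in 119 D6 cells (33.8 CPM, 30.5 to 37.2). Both had 0 UMIs in all 3 gonad libraries. A count of 0 allows up to 0.108 CPM at E12.5, 0.150 at E11.5, and 0.113 at E10.5 by the Poisson intervals. By the binomial interval, 0 of 2764 cells at E12.5 allows up to 0.133% of cells with a UMI. For ratios, 3 UMIs were taken as the floor of a library, which is 0.0878 CPM at E12.5, 0.122 at E11.5, and 0.0923 at E10.5. The D6 levels were 394-fold (Cyp21a1) and 385-fold (Cyp11b1) this floor at E12.5. These ratios use the D6 point values and have no interval.

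The ACTH receptor gene and its accessory gene were found in every library. Mc2r had 29.6 CPM (26.6 to 32.9) at D6, 4.48 (3.80 to 5.25) at E12.5, 2.72 (2.11 to 3.46) at E11.5, and 2.80 (2.25 to 3.44) at E10.5. It was 1.65-fold higher at E12.5 than at E11.5 and 6.62-fold (5.46 to 8.06) higher at D6 than at E12.5. Mrap had 24.5 CPM (21.8 to 27.5) at D6, 1.32 (0.960 to 1.76) at E12.5, 1.58 (1.13 to 2.17) at E11.5, and 3.17 (2.59 to 3.84) at E10.5, so that its level in the gonads was highest at the earliest age. The D6 level of Mrap was 18.6-fold (13.6 to 26.1) that at E12.5.

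The genes of the Leydig branch were the members whose D6 level did not stand apart from E12.5. Cyp17a1 had 37 UMIs in 15 cells at D6 (3.11 CPM, 2.19 to 4.28), 88 in 32 cells at E12.5 (2.58 CPM, 2.07 to 3.17), 5 at E11.5, and 0 at E10.5. Its E12.5 level was 12.7-fold (5.23 to 40.0) that at E11.5, and its D6 level was 1.21 times (0.799 to 1.79) that at E12.5. A single cell held 18 of the 37 D6 UMIs, and another held 30 of the 88 E12.5 UMIs. Both ratio intervals treat UMIs as independent, so they do not cover this clustering within cells. The share of cells ran the other way, as 0.656% (0.368 to 1.08) of D6 cells and 1.16% (0.793 to 1.63) of E12.5 cells held Cyp17a1, again with overlap. Insl3 had 2 UMIs at D6, 21 at E12.5, 2 at E11.5, and 0 at E10.5. Its D6 level was 0.273 times (0.0311 to 1.12) that at E12.5, an interval that includes a ratio of 1.

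In all, 8 of the 10 genes were higher at D6 than at E12.5 with intervals apart, and 0 were lower, where 48.9% of the 13196 genes tested were higher and 27.2% lower in the same comparison. Between E11.5 and E12.5, Mc2r, Cyp17a1, Insl3, and Fdx1 were higher at E12.5, and Star and Cyp11a1 lower, against 27.3% and 16.3% of the 13190 genes tested. Insl3 lay under the minimum of 50 UMIs over both libraries that the tested genes had to reach, in either comparison. The genes were chosen with these levels known, so nothing is read from these counts.

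**Figure D1:**
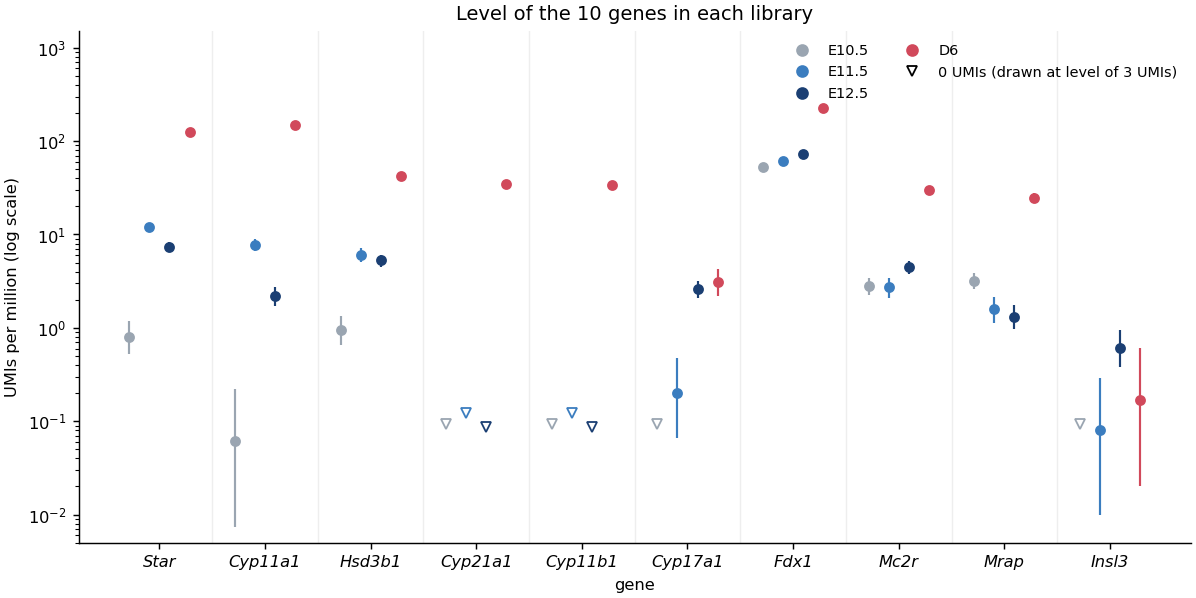
Level of each of the 10 genes in each of the 4 libraries in CPM on a log scale; points are library totals, bars are 95% Poisson intervals for counting error, and open triangles mark 0 UMIs, drawn at the level of 3 UMIs. Cyp21a1 and Cyp11b1 have filled points at D6 only, whereas the D6 and E12.5 intervals of Cyp17a1 and Insl3 overlap.

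Over D6, E12.5, and E11.5, the shares of cells with Star, Cyp11a1, Hsd3b1, Mc2r, and Mrap stood in the same order as their levels, whereas those of Fdx1 and Cyp17a1 did not. Cyp11a1 was found in 298 cells at D6 (13.0%, 11.7 to 14.5), 44 at E12.5 (1.59%, 1.16 to 2.13), and 103 at E11.5 (4.90%, 4.02 to 5.91), and 208 of the 298 held 2 or more UMIs. After each cell was thinned to 2000 UMIs, with 16, 0, and 209 shallower cells left out, these shares were 9.17%, 0.362%, and 1.53%. Fdx1 was found in 32.0% of cells at D6, 53.8% at E12.5, and 46.2% at E11.5, and after thinning in 18.4% (16.8 to 20.1), 12.6% (11.4 to 13.9), and 11.1% (9.72 to 12.6), so that the thinned share was highest at D6, as the level was, and the E12.5 and E11.5 intervals overlapped. In the same order of libraries, Star was found in 19.5%, 5.54%, and 10.2% of the cells, and Hsd3b1 in 6.65%, 1.99%, and 3.33%.

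Cells that should lack most of these genes gave the background. Among germ-marked cells, those with UMIs of at least 4 of 8 germ cell markers, Cyp11a1 was found in 1 of 160 cells at E11.5 (0.625%, 0.0158 to 3.43, median 18305 UMIs) and in 2 of 444 at E12.5 (0.450%, 0.0546 to 1.62, median 18670.5 UMIs), although these cells were deeper than the library median. Star was found in 2.50% (0.685 to 6.28) and 1.80% (0.781 to 3.52) of them. Hsd3b1 was found in 0 at both ages, which allows up to 2.28% of the 160. At D6, where 1 cell was germ-marked, 15 endothelial-marked cells (median 8850 UMIs) held Cyp11a1 in 1 cell. They held Star, Hsd3b1, Cyp21a1, Cyp11b1, Mc2r, and Mrap in 0, so that up to 21.8% would go unseen. The shares of Star in the E11.5 and E12.5 libraries and of Cyp11a1 at E11.5 thus lay above those in germ-marked cells with intervals apart, whereas the intervals of Cyp11a1 at E12.5 overlapped. Endothelial-marked gonad cells held Star in 2 of 47 at E11.5 (4.26%, 0.520 to 14.5) and 2 of 35 at E12.5 (5.71%, 0.700 to 19.2). At E11.5 they held Cyp11a1 in 1 cell (2.13%, 0.0539 to 11.3). These intervals overlapped those of the libraries, so the shares stood apart from germ-marked cells only. Mc2r and Cyp17a1 were at 0 in the germ-marked cells at E11.5, and the 5 cells with Cyp17a1 there held 1 UMI each. At E12.5, Mc2r was found in 1 of the 444 germ-marked cells. Fdx1 had no such background, as it was found in 63.75% and 75.7% of germ-marked cells at E11.5 and E12.5.

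At E11.5, the 103 Cyp11a1-positive cells held few of the other genes. Star was found in 23 of them (22.3%, 14.7 to 31.6) against 9.56% (8.31 to 10.9) of Cyp11a1-negative cells, and Hsd3b1 in 13 (12.6%, 6.90 to 20.6) against 2.85% (2.17 to 3.68). The median cell held 12238 UMIs in the positive and 11910.5 in the negative group, so depth was alike. Mrap was found in 5 positive cells and Insl3 in 1, and Fdx1 in 55.3% against 45.7%. Mc2r and Cyp17a1 were found in 0 of 103 cells, which allows up to 3.52%. Only 2 cells of the library held Star, Cyp11a1, and Hsd3b1 together.

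At E12.5, Cyp17a1 was the only other gene whose share of the 44 Cyp11a1-positive cells had an interval apart from that at E11.5. Hsd3b1 was found in 11 (25.0%, 13.2 to 40.3) against 1.62% (1.18 to 2.17) of negative cells, and Cyp17a1 in 7 (15.9%, 6.64 to 30.1) against 0.919% (0.596 to 1.35). These few cells held 57.2% of all Hsd3b1 UMIs and 59.1% of all Cyp17a1 UMIs of the library. Star was found in 29.5% against 5.15%, Mrap in 15.9% against 1.25%, and Insl3 in 3 cells against 8 of the negative cells, with medians of 10978.5 and 10946 UMIs. Mc2r was not set apart, with 6.82% (1.43 to 18.7) against 4.78% (4.01 to 5.65). Among the 10 cells with 2 or more Cyp11a1 UMIs, 8 held Hsd3b1, 5 held Star, and 4 held Cyp17a1.

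At D6, Star and Fdx1 were each found in over 50% of the 298 Cyp11a1-positive cells, and 5 other genes in smaller shares that lay above those of negative cells. Star was found in 221 (74.2%, 68.8 to 79.0) against 11.3% of negative cells, and Fdx1 in 233 (78.2%, 73.1 to 82.7) against 25.1%. Mrap was found in 40.6% (35.0 to 46.4) against 1.41%, Mc2r in 39.9% (34.3 to 45.7) against 7.15%, and Hsd3b1 in 36.2% (30.8 to 42.0) against 2.21%. Cyp11b1 was found in 34.6% (29.2 to 40.3) against 0.805%, and Cyp21a1 in 28.9% (23.8 to 34.4) against 1.46%. Positive cells held 89.8% of all Cyp21a1 UMIs, 86.5% of Hsd3b1 UMIs, and 86.3% of Mrap UMIs, but 51.6% of Mc2r UMIs, and Cyp11b1 was at 191 CPM in positive and 2.02 CPM in negative cells.

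The genes of the Leydig branch were rare in these D6 cells. Cyp17a1 was found in 5 of the 298 cells (1.68%, 0.547 to 3.87) against 0.503% (0.242 to 0.924) of negative cells, and Insl3 in 1. The positive cells were deeper, with a median of 6216.5 against 4430 UMIs. When every cell was thinned to 2000 UMIs, 208 cells stayed Cyp11a1-positive, and Star was found in 59.6% against 7.47%, Fdx1 in 66.3% against 13.6%, Cyp11b1 in 22.6% against 0.582%, Mrap in 22.1% against 0.970%, Hsd3b1 in 21.2% against 1.41%, Cyp21a1 in 20.2% against 0.970%, and Mc2r in 16.8% against 3.93%. Thinning left 29 positive cells at E11.5 and 10 at E12.5, too few to set beside each other.

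**Figure D2:**
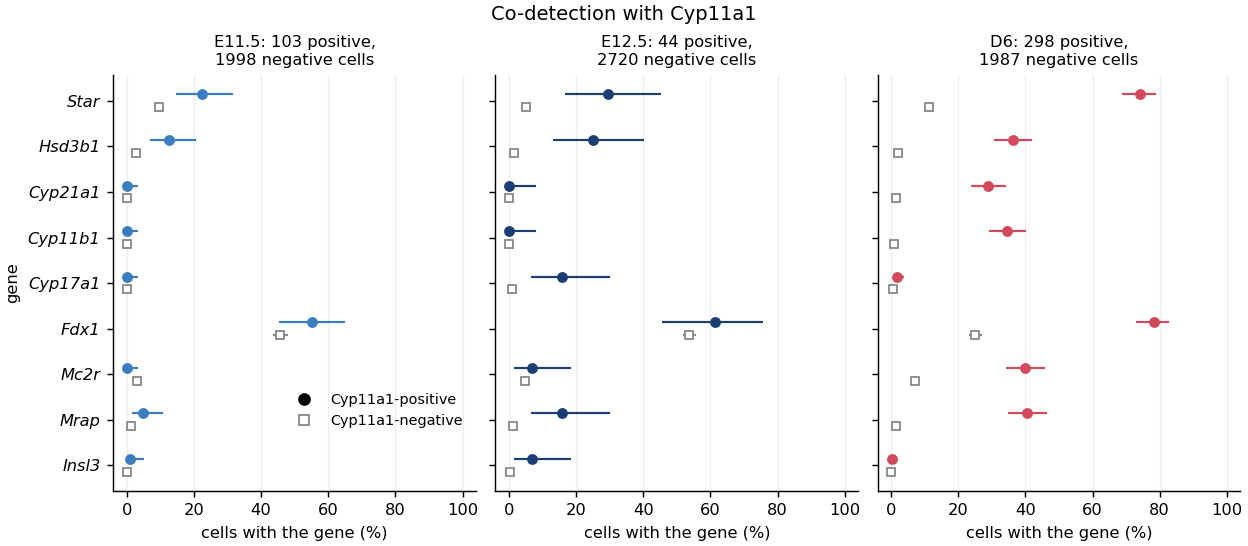
Share of Cyp11a1-positive (filled circles) and Cyp11a1-negative cells (open squares) with at least 1 UMI of each of the 9 other genes, in percent, for D6, E12.5, and E11.5; bars are exact 95% binomial intervals. At D6 the circles of Star and Fdx1 lie at 74.2% and 78.2%, and those of Cyp17a1 and Insl3 lie near 0.

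Set in order of their Cyp11a1 UMIs, the D6 cells differed in most of the other genes step by step. The cells with 0, 1, 2 to 4, 5 to 9, and 10 or more UMIs numbered 1987, 90, 83, 65, and 60, with medians of 4430, 5791.5, 6010, 6452, and 6909 UMIs. From the first to the last group, the level of Star went from 39.3 to 1060 CPM, that of Fdx1 from 77.6 to 1759, that of Hsd3b1 from 6.86 to 471, that of Cyp11b1 from 2.02 to 431, and that of Mrap from 4.04 to 242. Each of these levels was higher in every group than in the one before. Cyp21a1 was at 4.24, 21.5, 197, 146, and 411 CPM, so that its 2 middle groups did not follow this order. Mc2r leveled off, at 17.3, 51.9, 106, 114, and 99.0 CPM. Of the 60 cells with 10 or more Cyp11a1 UMIs, all 60 held Fdx1, 59 held Star, 48 held Mrap, 39 held Cyp11b1, 35 held Hsd3b1, 32 held Mc2r, 30 held Cyp21a1, and 2 held Cyp17a1.

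Genes outside the list also differed along this order. Nr5a1 went from 75.1 to 807 CPM and Fdxr, the reductase that feeds FDX1, from 34.3 to 739 CPM. Genes of mesenchymal and interstitial cells were low where Cyp11a1 was high, as for Nr2f2 with 1198 CPM in the first group and 198 CPM in the last, and for the collagen gene Col1a1 with 830 CPM in the first group and under 20 CPM in each of the last 3, whose intervals overlapped and which held 7, 8, and 5 UMIs of it. Wt1 went from 193 to 35.2 CPM and Gata4 from 93.8 to 30.8 CPM, both genes of the gonadal primordium, whereas Gata6 was at 331 and 418 CPM.

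**Figure D3:**
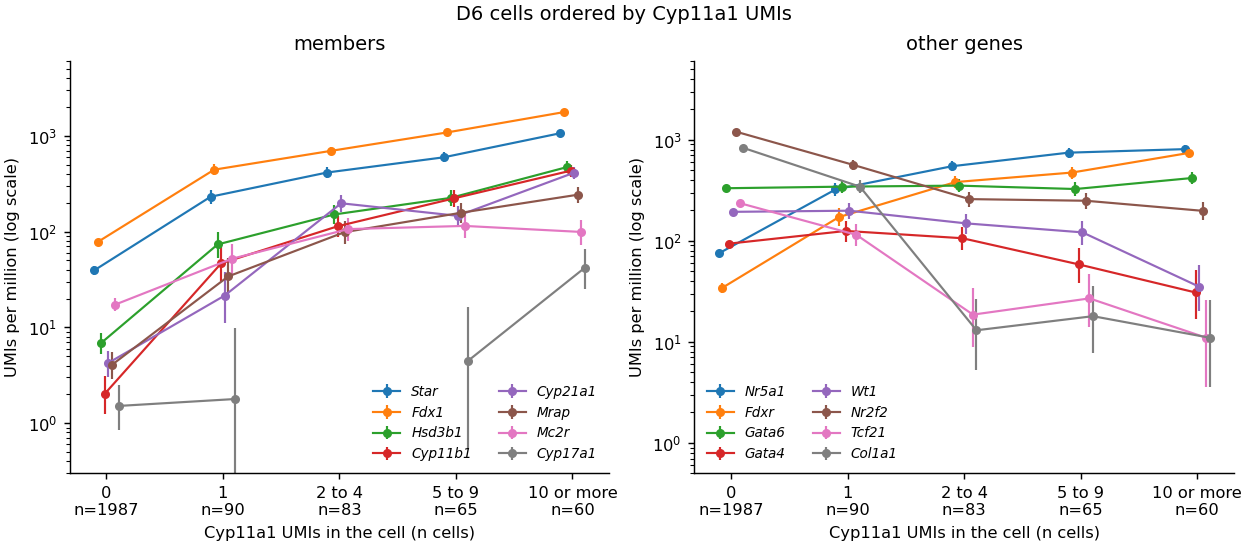
Level in CPM (log scale) of 8 of the genes (left) and of 8 other genes (right) in D6 cells grouped by their number of Cyp11a1 UMIs, with the number of cells under each group; bars are 95% Poisson intervals, and groups with 0 UMIs of a gene have no point. Star and Fdx1 are highest in the cells with 10 or more Cyp11a1 UMIs, Mc2r is level over the last 3 groups, and Col1a1 lies under 20 CPM in the same 3 groups.

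Within the D6 cells with many Cyp11a1 UMIs, the later genes were not found evenly together. Of the 125 cells with 5 or more Cyp11a1 UMIs, 49 held Cyp21a1 and 76 did not. Cyp11b1 was found in 71.4% (56.7 to 83.4) of the cells with Cyp21a1 and in 47.4% (35.8 to 59.2) of those without it, with overlapping intervals. Mrap was found in 79.6% (65.7 to 89.8) of cells with Cyp21a1 and in 50.0% (38.3 to 61.7) of those without, with intervals apart. For Hsd3b1 the shares were close, with 47.9% (35.9 to 60.1) of the 71 cells with Cyp11b1 and 51.9% (37.8 to 65.7) of the 54 cells without. The 4 cells with Cyp17a1 all held Hsd3b1, 1 held Cyp11b1, and 0 held Cyp21a1. Among the 121 cells without Cyp17a1, these shares were 47.9%, 57.9%, and 40.5%. Each lay within the interval of the 4 cells (39.8 to 100, 0.631 to 80.6, and 0 to 60.2), so nothing is read from them. The part of depth in these shares was not tested.

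Cells with several of the genes were mostly D6 cells. At least 4 of the 10 genes were found in 212 cells at D6 (9.28%), 19 at E12.5 (0.687%), and 5 at E11.5 (0.238%), and the largest number in a cell was 8, 7, and 5. After thinning, at least 4 genes were found in 109 cells at D6, 2 at E12.5, and 0 at E11.5. Star, Cyp11a1, and Hsd3b1 were found together in 101, 7, and 2 cells. Of the 101 D6 cells, 59 also held Cyp21a1 or Cyp11b1 and 4 held Cyp17a1 or Insl3, whereas 6 of the 7 cells at E12.5 held Cyp17a1 or Insl3. The adrenal pair Cyp21a1 and Cyp11b1 gave 179 D6 cells with at least 1 of them (7.83%, 6.76 to 9.01) and 55 with both, and the Leydig pair Cyp17a1 and Insl3 gave 16. A gene of each pair was found in 1 D6 cell. This was 1 of the 16 cells of the Leydig pair, where 7.83% of all D6 cells held the adrenal pair, so nothing is read from it. Mc2r and Mrap, whose proteins act together, were found in the same cell 0, 1, 1, and 74 times from E10.5 to D6.

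Where the genes lay among the other cells of each library differed between the gonads and D6. A cell was taken as Sertoli-marked with UMIs of at least 4 of 12 Sertoli markers, such as Sox9, Amh, and Dhh, and as interstitial-marked with at least 4 of 10 interstitial markers, such as Pdgfra, Tcf21, and Nr2f2. At E11.5, 496 cells (23.6%) were Sertoli-marked, and they included 70 of the 103 Cyp11a1-positive cells, 59 of the 70 Hsd3b1-positive cells, and 28 of the 33 Mrap-positive cells. Mc2r lay elsewhere, with 52 of its 61 cells among the 944 interstitial-marked cells and 2 among the Sertoli-marked. Star was found in 65 of the Sertoli-marked and 118 of the interstitial-marked cells.

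At E12.5, Mc2r again lay mostly in interstitial-marked cells, and the division of Cyp11a1, Hsd3b1, and Cyp17a1 depended on cells with 1 UMI. The 613 Sertoli-marked cells (22.2%) included 31 of 44 Cyp11a1-positive, 34 of 55 Hsd3b1-positive, and 33 of 41 Mrap-positive cells, whereas the 1518 interstitial-marked cells (54.9%) included 118 of 133 Mc2r-positive cells (88.7%). The 6 of 11 Insl3-positive cells that were interstitial-marked (54.5%) were close to the share of all cells. With 2 or more UMIs, 4 of the 10 Cyp11a1-positive cells were Sertoli-marked and 3 interstitial-marked, and of the 21 such Hsd3b1-positive cells 8 and 9 were. Sertoli-marked cells held 87.9% of all Hsd3b1 UMIs at E11.5 and 23.9% at E12.5. The level of Hsd3b1 was 20.6 CPM in Sertoli-marked and 0.237 CPM in interstitial-marked cells at E11.5, and 6.00 (4.34 to 8.08) and 5.22 CPM (4.19 to 6.42) at E12.5. Of the 32 Cyp17a1-positive cells, 14 were Sertoli-marked and 9 interstitial-marked, and 1 cell was counted in both. With 2 or more UMIs of Cyp17a1, 3 of 12 cells were Sertoli-marked and 6 interstitial-marked, again with 1 in both. Sertoli-marked cells held 19.3% and interstitial-marked cells 29.5% of all Cyp17a1 UMIs at E12.5. Because 11 of the 12 Sertoli markers passed the minimum of 50 UMIs at both ages, the markers themselves could be compared: 8 at E11.5 and 10 at E12.5 were over 2-fold higher in Cyp11a1-positive than in negative cells, with 6 and 4 of the 10 interstitial markers over 2-fold lower. The part of free RNA and of doublets in these shares was not tested beyond the germ-marked and endothelial-marked cells and the doublet calls. These calls took in 0 of the 103 and 3 of the 44 Cyp11a1-positive cells, and 10 of the 298 at D6. Over all cells of the library they took in 35 of 2101 (1.67%) at E11.5, 27 of 2764 (0.977%) at E12.5, and 46 of 2285 (2.01%) at D6. The called share at E12.5 and D6 was thus higher among Cyp11a1-positive cells than in the library.

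The E12.5 cells with the most Hsd3b1 were not Sertoli-marked, unlike those at E11.5. At E11.5, 7 cells had 5 or more Hsd3b1 UMIs, all 7 were Sertoli-marked, 2 held Cyp11a1, and 0 held Cyp17a1 or Insl3. At E12.5, 7 cells had 5 or more, and 0 of them were Sertoli-marked, where 22.2% of all E12.5 cells were. The 4 that were interstitial-marked (57.1%) were close to the share of all E12.5 cells (54.9%). Of the 7 cells, 5 held Cyp11a1, 6 held Cyp17a1, 4 held Insl3, and all 7 held Fdx1. The cell with the most held 42 UMIs of Hsd3b1, 15 of Fdx1, 5 of Insl3, and 4 each of Cyp11a1 and Cyp17a1. The next by Hsd3b1 held 17 UMIs of it, 5 of Cyp17a1, 4 each of Fdx1 and Cyp11a1, and 2 of Star. Another of the 7 held 30 UMIs of Cyp17a1, 30 of Fdx1, 14 of Hsd3b1, 6 of Star, and 4 of Cyp11a1. These few cells were chosen after their values were seen. Lhcgr, the receptor for luteinizing hormone, had 0 UMIs in each of the 7.

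At D6, most Cyp11a1-positive cells carried neither set of markers. Of the 298 cells, 232 were neither Sertoli-marked nor interstitial-marked, against 852 of all 2285 cells, 20 were Sertoli-marked, and 48 were interstitial-marked. The 73 Sertoli-marked D6 cells held Cyp11a1 in 27.4% (17.6 to 39.1), and the 1368 interstitial-marked cells held it in 3.51% (2.60 to 4.63). The 852 cells with neither set held it in 232, a share close to that of the Sertoli-marked cells. Interstitial markers were found with Fdx1 in 329 of its 732 cells (44.9%) and with Mc2r in 114 of its 261 cells (43.7%), both below the 59.9% of all D6 cells that were interstitial-marked. D6 cells were less deep than gonad cells, and the part of depth in the number that reached 4 markers was not tested.

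**Figure D4:**
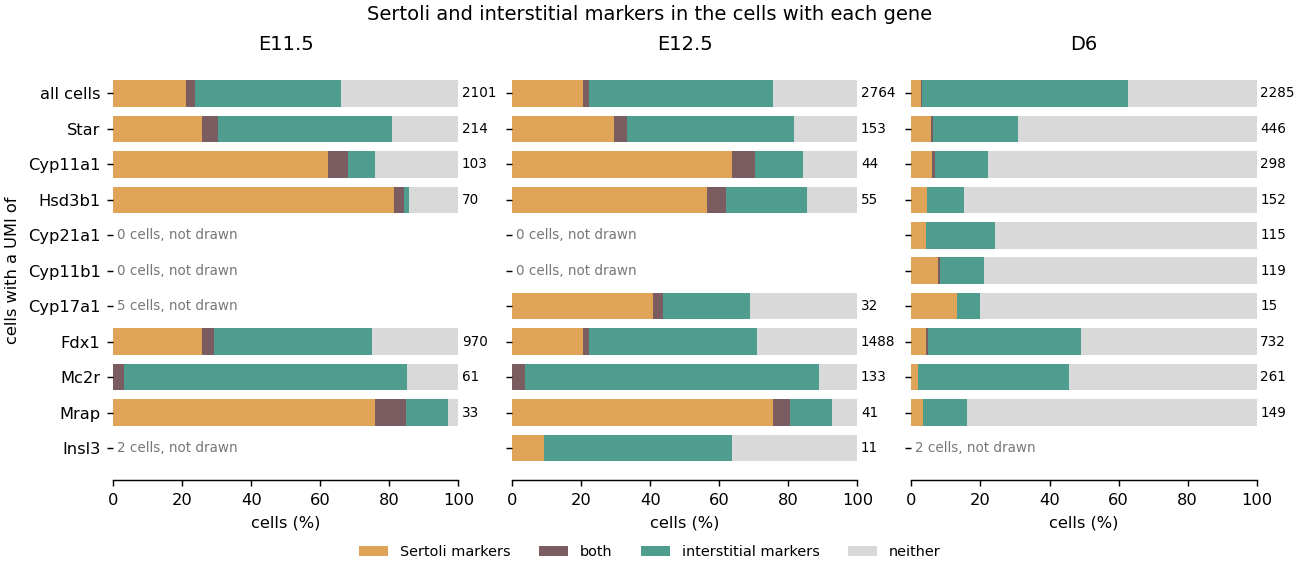
Share of the cells with at least 1 UMI of each gene that held at least 4 Sertoli markers, at least 4 interstitial markers, both, or neither, in percent, for the 3 libraries, with the number of cells at the end of each bar and all cells at the top; genes with under 10 cells are not drawn. At E11.5 and E12.5 the bars of Cyp11a1, Hsd3b1, and Mrap are mostly Sertoli-marked and that of Mc2r mostly interstitial-marked, whereas at D6 the Cyp11a1 bar is mostly neither.

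Mrap at E10.5 was found with a gene of red blood cells. Of its 58 positive cells, 72.4% held the globin gene Hba-a2, against 3.94% of the other cells. Its correlation across the 3837 cells was 0.613 with Hba-a2, and 0 of these 58 cells held Nr5a1. Mc2r was found in 84 cells at E10.5, and its highest correlation there was 0.160, with Cxcl12, over sparse counts of the same library, which is not read as a pattern.

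The other genes of the pathway were examined in Cyp11a1-positive against negative cells, as the log2 ratio of CPM plus 10 over genes with at least 50 UMIs in the library. At E11.5, 10 of 118 such listed genes were over 2-fold higher and 5 lower, where 2.34% and 2.52% of all 11687 genes were. The counts at E12.5 were 17 higher and 6 lower of 122, where 2.53% and 2.23% of 12204 genes were, and those at D6 were 22 higher and 12 lower of 113, where 2.57% and 3.99% of 11089 genes were. The members are left out of these counts, and the lists were drawn up with earlier results known, so the counts are a description. The median of all genes lay at -0.05, -0.06, and -0.03 in the 3 libraries.

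Redox partners of the steroid P450 enzymes differed among themselves at D6. Of 6 tested, the member Fdx1 (3.46), Fdxr (3.29), and Cyb5a (1.15), a cytochrome b5, were over 2-fold higher on this log2 scale, and the median was 1.07. Por, which serves the microsomal P450 enzymes, was at 0.99. At E12.5, Fdx1 (1.18) and Fdxr (1.54) were over 2-fold higher, with a median of 0.68, and at E11.5 only Fdxr (1.05) was, with a median of 0.33.

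Of the genes listed for the supply of cholesterol, between 0 and 3 in each list were over 2-fold higher. Of 22 tested genes of cholesterol synthesis, 0 were higher at E11.5 and E12.5, and Fdps (1.11), Msmo1 (1.03), and Scap (1.12) were at D6, with medians of -0.06, 0.21, and 0.47. Of 16 genes listed for cholesterol uptake, storage, and transport, Soat1, which esterifies cholesterol, was higher at E11.5 (1.08). Scarb1, the receptor for high-density lipoprotein, and Soat1 were higher at E12.5 (1.26 and 1.05), and Apoe and Abca1 at D6 (1.57 and 1.06). Acat1, on the same list, was also higher at D6 (1.05). In the mouse this symbol names a mitochondrial acetyl-CoA acetyltransferase and not the sterol enzyme, which is Soat1. Among other steroid enzymes, Akr1cl was higher in each library (1.80, 1.87, and 2.83), and Hsd11b2, which inactivates corticosterone, was lower in each (-1.89, -1.29, and -1.68).

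Of the adrenal list, 3 of 8 tested genes that are not members were higher in Cyp11a1-positive cells at D6 and 2 were lower. The higher genes were, beside 4 members, Inha (2.26), Mgarp (2.88), and Akr1b7 (1.17), while Rspo3, a signal of the adrenal capsule (-1.88), and Dlk1 (-1.16) were lower. Of 11 tested at E12.5, Inha, the inhibin alpha subunit, and Susd3 were higher (2.18 and 1.57), and of 11 at E11.5, Inha was (1.96). Cyp11b2, the aldosterone synthase gene, did not reach 50 UMIs in any library. Of 15 genes of the cAMP pathway, through which ACTH acts, Prkar2b (1.72) and Rgs2 (1.60) were higher at D6 and Adcy2 (-1.26) was lower.

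Genes of the fetal Leydig list were divided. At E12.5, 7 of 23 were higher, among them Cyp17a1 (3.27), Aldh1a1 (2.05), Sct (1.72), and Hsd17b3 (1.71), of which Hsd17b3 is also a Sertoli marker here, and Nr2f2 (-1.61) was among the lower genes. At D6, Aldh1a1 (2.96), Prlr (2.54), Gramd1b (2.42), and Sct (1.38) of 19 were higher and 6, all of them also progenitor or interstitial genes, were lower. At E11.5, 2 of 18 were higher and 3 lower. Among regulators, Nr5a1 was higher in each library (1.48, 1.28, and 2.81), Gata4 at E11.5 and E12.5 (1.17 and 1.04), and Nr0b2 and Cited2 at E12.5 (1.67 and 1.22) and D6 (1.45 and 1.63).

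Markers of other cells were compared in the same way. All 10 interstitial markers were over 2-fold lower in the Cyp11a1-positive cells at D6, with a median of -1.83, and Ptgds was the only 1 of 9 tested Sertoli markers that was higher. Of 7 coelomic progenitor markers, 4 were lower at D6, 4 at E12.5, and 2 at E11.5, and of 6 supporting-like markers, 3, 4, and 2 were. Germ cell and endothelial markers included 0 that were higher. Erythroid genes were lower at E11.5 and E12.5, 4 of 6 and 4 of 5, and were not tested at D6, and macrophage genes included 0 past 2-fold. Of the chromaffin and neural crest list, which would mark the adrenal medulla, Pnmt was higher at E11.5 (2.18) and E12.5 (1.76), but Th and Chga were under 50 UMIs in all 3 libraries, and Stmn2 was lower at D6 (-1.52).

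**Figure D5:**
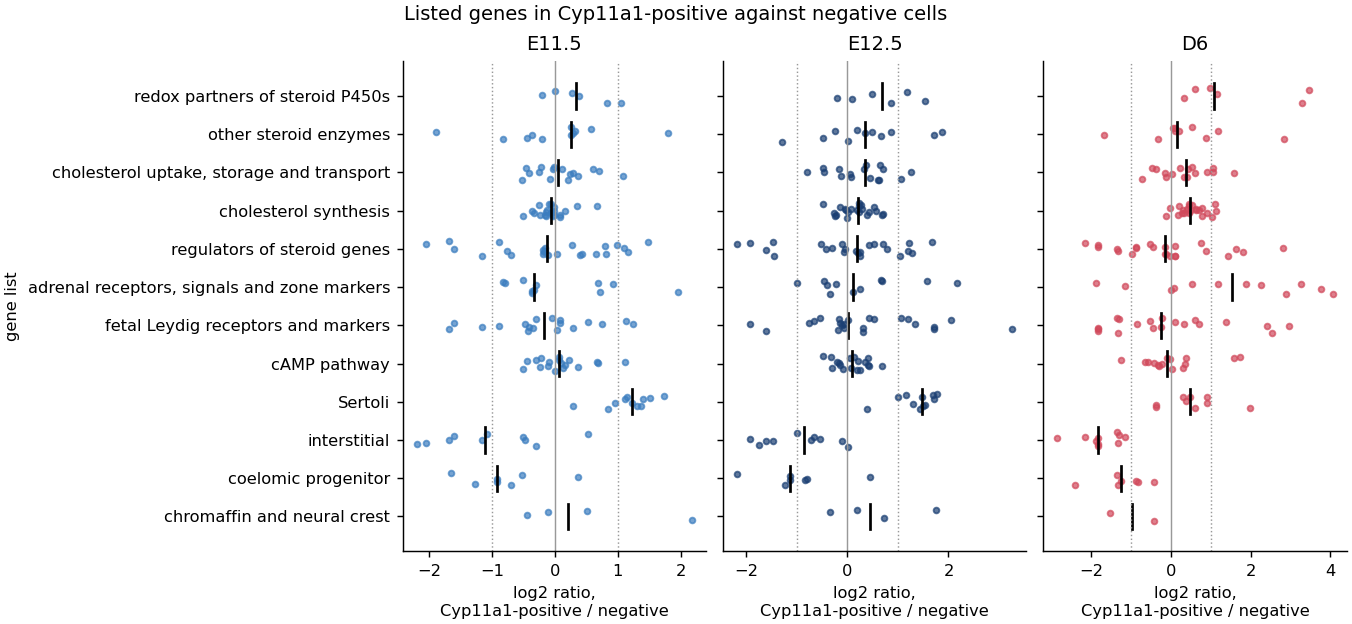
Log2 ratio of CPM plus 10 between Cyp11a1-positive and negative cells (horizontal axis) for each tested gene of 12 lists (vertical axis) in each of the 3 libraries; black bars are list medians, and dotted lines mark 2-fold. Sertoli markers lie to the right at E11.5 and E12.5, with medians of 1.22 and 1.48, and all 10 interstitial markers lie left of the dotted line at D6.

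The genes most like Cyp11a1 across single cells differed between libraries. By Pearson correlation of log counts per 10000, the 10 nonmember genes at D6 were Adh1 (0.752), Fdxr (0.667), Akr1cl (0.610), Nr5a1 (0.585), C4b (0.584), Cebpb (0.567), Acsbg1 (0.563), Mcrip2 (0.534), Mgarp (0.513), and Apoc1 (0.511), over 2285 cells of a single library whose depth they share. Adh1, an alcohol dehydrogenase, was found in 69.1% of Cyp11a1-positive and 7.20% of negative D6 cells. Among the members at D6, the correlation was 0.662 for Star, 0.637 for Fdx1, 0.603 for Mrap, 0.593 for Cyp11b1, 0.517 for Hsd3b1, 0.480 for Cyp21a1, and 0.340 for Mc2r.

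In the gonads the correlations were weak. At E12.5, over 2764 cells, the members Hsd3b1 (0.467), Cyp17a1 (0.344), and Star (0.213) came before any other gene, followed by Hao2 (0.211), Cyp26b1, Sez6l2, Aldh1a1, Akr1cl, Wnt6, Cav1, Inha, Mcrip2, and Nr0b2. At E11.5, over 2101 cells, the leading genes were Tgm3 (0.280), Kctd14, Akr1cl, Plac1, Klk1, 2210407C18Rik, Prss43, Inha, Nppc, and Adam8, and the highest member was Star (0.114). Akr1cl was the only gene among the leading 10 in all 3 libraries. Kctd14 was found in 94.2% of Cyp11a1-positive and 47.6% of negative cells at E11.5.

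Nr5a1 and Cyp11a1 were found together more often with more Nr5a1 at D6. Cyp11a1 was found in 3.45% of the D6 cells with 0 Nr5a1 UMIs, and in 11.4%, 41.6%, 79.5%, and 95.5% of those in the 4 groups with increasing numbers of them. The groups had 0, 1, 2 to 4, 5 to 9, and 10 or more Nr5a1 UMIs, and the deeper cells lay in the later groups, with medians from 4232 to 9321.5 UMIs. At E11.5 the shares were 2.12%, 5.88%, 12.4%, 20.7%, and 25.0%, the last over 8 cells. The E12.5 shares were 0.691%, 2.33%, 5.39%, 3.03%, and 0%, the last over 1 cell.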

How the data were processed

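The files are raw UMI counts per gene and cell, as the authors deposited them, made with Cell Ranger 3.0.2 and mm10 according to the submitters' processing notes, whereas the file headers name version 6.0.0. The library protocol speaks of female gonads, and the sample titles of XY gonads, which were followed.

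Following the study, the limits on a cell were over 1000 and under 4000 genes with a UMI, and under 10% of UMIs from mitochondrial genes (E10.5), then 500, 5000, and 20% (E11.5), 2000, 5000, and 8% (E12.5), and 1000, 4000, and 12% (D6). UMIs were summed over cells and divided by the library total. A gene counted as apart between libraries when the 95% Poisson intervals did not overlap, and between Cyp11a1-positive and negative cells past 2-fold on log2 of CPM plus 10, over genes with at least 50 UMIs. Ratios of levels have exact intervals conditional on the summed count. Conditions were not tested against each other, as each is a single library. Thinning drew 2000 UMIs from each cell without replacement, and Scrublet in scanpy 1.11.5 called doublets at an expected 0.8% per 1000 cells, which were kept in; if its own threshold marked under 0.5% of a library, the top scores up to the expected number were taken. The steps were tested on simulated counts.

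The 10 members, the gene lists, and the thresholds were chosen with earlier results of these data known. Named genes were the members, the listed genes, and the 10 nonmembers most correlated with Cyp11a1 in a library. The marking of Sertoli and interstitial cells, the groups by Cyp11a1 and Nr5a1 UMIs, and the genes most like Mrap and Mc2r were chosen after values were seen. Alternatives were the limits on cells, thinning, doublet removal, Nr5a1-positive cells, the UMI minimum, the pseudocount, and the filter on low counts. Positions and overlaps came from GENCODE vM21, and upstream windows from RefSeq.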

Additional observations from a re-analysis of the deposited data

How the results depend on the processing

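The 8 genes higher at D6 than at E12.5 were the same 8 genes in every setting run. The mean of per-cell CPM, added after seeing the data for lower genes, gave 2 genes (Cyp17a1 and Insl3) lower at D6, by direction alone. Thinning to 2000 UMIs left 2 genes higher (Mc2r and Cyp17a1, without Insl3 and Fdx1) and 1 lower (Cyp11a1, without Star) at E12.5 than at E11.5, against 4 and 2. Nr5a1-positive cells alone also gave 1 lower, again Cyp11a1 without Star, and 3 higher, without Fdx1. The share of cells with Cyp11a1 at D6, E12.5, and E11.5 was 9.17%, 0.362%, and 1.53% after thinning, 36.4%, 3.51%, and 10.1% among Nr5a1-positive cells, and 9.10%, 0.362%, and 1.52% with at least 2 UMIs, and 14.5% at D6 over all deposited barcodes. Of the other 9 genes, 1 was found in over 50% of Cyp11a1-positive cells at E12.5 and 1 at E11.5, 0 and 0 after thinning, and 2 at E12.5 with at least 2 UMIs. A pseudocount of 50 CPM gave 12, 9, and 3 listed genes higher in the 3 libraries, against 22, 17, and 10, and 5, 3, and 3 lower, against 12, 6, and 5. The other 59 values that answer a comparison stayed within 1.5 times the count, or within the interval of the share. With at least 3 or 5 markers in place of 4, chosen after seeing the data, 71.8% or 59.2% of Cyp11a1-positive cells at E11.5 were Sertoli-marked, against 68.0%, and 93.4% or 72.1% of Mc2r-positive cells were interstitial-marked, against 85.2%. No paired analysis was possible because each condition has 1 library.

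Counting intervals say nothing of the spread between embryos or cultures. In the gonads, 71 of the 103 and 34 of the 44 Cyp11a1-positive cells held 1 UMI of it, so that a gene missing from a cell may have gone undetected.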
